A study of Mus musculus with 10 samples.

Results

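The genes described here encode the enzymes that write and erase methyl groups on histone lysines, measured in mouse bone marrow cells that carried an ASXL2 construct. The members were all protein-coding genes whose symbol begins with Kmt, Kdm, Setd, Nsd, Suv39h, Ehmt or Prdm, except Kdm1a and Kdm2b, and whose mean level over the 10 libraries was at least 0.5 TPM (the usual abundance unit scaled to transcript length). The symbol rule gave 56 genes, and 48 of them reached that level, out of 47311 genes after transcripts were summed and 11454 protein-coding genes at the same level. The other 8 included Prdm1, Prdm6, Prdm8, Prdm12, Prdm13, Prdm14 and Kdm4d. Prdm16 was the lowest member at 1.89 TPM, and Kdm4d lay outside the limit at 0.0261 TPM. One member, Nsdhl, shares only the first letters of its symbol with the NSD methyltransferases. It encodes an enzyme of cholesterol synthesis and was kept, but outside the groups by role.

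The cells were lineage-negative, Kit-positive bone marrow cells grown with IL3, IL6 and SCF, and GFP-positive cells were sorted and expanded before polyA RNA was prepared. They carried an empty vector (2 libraries), over-expressed full-length Asxl2 (2 libraries), or over-expressed Mutant1, Mutant2 or Mutant3 Asxl2 (2 libraries each, pooled here into 1 class of 6). The mouse strain, age and sex, the vector and the nature of each mutation are not stated in the labels. ASXL2 is a chromatin scaffold protein that binds BAP1, an enzyme that removes ubiquitin from histone H2A. Asxl2 itself was at 107 and 111 CPM (counts scaled to the library total by the TMM method) in the empty vector libraries and between 790.2 and 1892 CPM in the 8 construct libraries.

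Each library carries a batch number in its label and another in the name under which its data were deposited. The 2 numbers differ for Mutant1 replicate 2 and Mutant3 replicate 1, and the deposited names give another mutant number than the label for 4 libraries. The batch in the deposited names was used as the block, so batch 1 held 1 empty vector, 1 full-length and 3 mutant libraries (both of Mutant1 and replicate 1 of Mutant2), and batch 2 held the other 5. The first principal component, with 41.2% of the variance, separated these batches without overlap. In the construct libraries Asxl2 was at 1132 to 1892 CPM in batch 1 and at 790.2 to 991.9 CPM in batch 2. The part of this difference in the results that follow was not tested. Library totals ran from 52152668 to 78876983 estimated counts. Nothing in the labels says that replicates are separate cultures, so the spread behind each p-value may be technical.

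Markers of mast cells and basophils were abundant in every library, with 11 of 12 listed genes at a mean of 10 TPM or more and a summed level of 57696 to 69959 TPM. The stem and progenitor list summed to 1743 to 2023 TPM with the empty vector, 1301 to 1332 TPM with full-length Asxl2 and 1635 to 1958 TPM with the mutants. All 10 neutrophil and all 9 lymphoid genes had means under 1 TPM, and so did 5 of 7 erythroid and 7 of 8 stromal and endothelial genes. The erythroid list summed to 11.9 to 13.0 TPM with full-length Asxl2, to more in both empty vector libraries (up to 22.8 TPM) and to 14.8 to 38.8 TPM with the mutants. The stromal and endothelial list summed to 200.3 to 212.5 TPM with the empty vector, 166.9 to 209.3 TPM with full-length Asxl2 and 158.1 to 196.9 TPM with the mutants. The monocyte and macrophage list, with 5 of 9 genes under 1 TPM, summed to 74.8 to 89.4 TPM with the empty vector, 39.0 to 49.3 TPM with full-length Asxl2 and 30.2 to 55.0 TPM with the mutants. These 4 lists differed between some of the classes without overlap, and their part in the results that follow was not tested. In such bulk samples fewer cells of a type and less RNA per cell cannot be told apart.

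Histone lysine methyltransferases carry a SET domain in nearly every case and add 1 or more methyl groups to a given lysine. Methylation of H3K4 marks active promoters and enhancers, methylation of H3K36 marks transcribed gene bodies, and methylation of H3K9, H3K27 and H4K20 is found in repressed or compacted chromatin. Most demethylases belong to the JmjC family, which uses oxygen, iron and 2-oxoglutarate to remove the methyl group. In blood-forming tissue the family is best known for Kmt2a, which keeps Hox genes active in progenitors and is rearranged in leukaemia.

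The comparison of all members between constructs gave 4 genes past the threshold. All were JmjC demethylases that rose in the mutants over the empty vector, namely Kdm3a, Kdm5b, Kdm6b and Kdm7a. They were 8.33% of the members, beside 10.8% of all genes tested, and the calls rested on 1 empty vector library, as given below. Whether the 4 share any control was not tested. The 250 bases before the transcription start of each are shown where the RefSeq promoter table (build GRCm38.p6) holds the gene. That was so for 36 of the 48 members and for every one of the 4 but Kdm6b. The core of the hypoxia response element takes the form ACGTG or GCGTG. Capitals mark only ACGTG or its reverse complement CACGT, which also lies within the E-box CACGTG. The Kdm3a promoter lies on the minus strand at chr6:71632918-71633167, the Kdm5b promoter on the plus strand at chr1:134559928-134560177, and the Kdm7a promoter on the minus strand at chr6:39206774-39207023.
Kdm3a: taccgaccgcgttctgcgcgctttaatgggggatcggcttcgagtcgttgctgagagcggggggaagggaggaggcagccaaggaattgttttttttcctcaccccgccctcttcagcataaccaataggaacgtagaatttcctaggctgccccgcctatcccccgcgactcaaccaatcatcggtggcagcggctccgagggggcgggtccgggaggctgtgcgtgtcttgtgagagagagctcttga
Kdm5b: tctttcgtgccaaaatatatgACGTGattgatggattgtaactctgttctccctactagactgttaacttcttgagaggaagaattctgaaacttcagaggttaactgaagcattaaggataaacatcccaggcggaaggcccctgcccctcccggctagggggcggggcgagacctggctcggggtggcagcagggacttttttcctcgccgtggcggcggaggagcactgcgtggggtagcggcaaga
Kdm7a: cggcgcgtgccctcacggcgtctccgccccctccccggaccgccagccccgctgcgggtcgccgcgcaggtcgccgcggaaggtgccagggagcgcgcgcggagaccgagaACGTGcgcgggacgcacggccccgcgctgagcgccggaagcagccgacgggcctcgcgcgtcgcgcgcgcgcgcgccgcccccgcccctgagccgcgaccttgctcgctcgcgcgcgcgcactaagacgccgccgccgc

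Kdm5b held 1 match to ACGTG, 229 bases before the start, Kdm7a held 1, 139 bases before the start, and Kdm3a held none of this form. Searched on both strands, ACGTG was present in 5 of the 36 member promoters, against 22.1% of the 9110 promoters of protein-coding genes at 0.5 TPM or more and 17.9% of all 16432. The other form of the core, GCGTG (reverse complement CACGC), was in 18 of the 36, against 46.4% and 34.8%. Each of the 3 printed promoters, that of Kdm3a included, held 1 match to GCGTG. The 3 promoters differed in base composition, with a GC content of 59.6% for Kdm3a, 54.4% for Kdm5b and 82.0% for Kdm7a, where the median was 61.8% over the member promoters and 60.0% over the expressed genes.

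The members covered a wide range of levels in these cells, from 126 TPM for Ehmt2 to 1.89 TPM for Prdm16 as means over the 10 libraries. TPM counts every annotated transcript, and short non-coding ones can weigh heavily, so levels of protein-coding transcripts alone are shown in the plot of levels and given in the text for some members. For Ehmt2 the coding level was 97.4 TPM. The clearest case was Kdm4b, an H3K9 and H3K36 demethylase, whose 99.0 TPM fell to 45.2 TPM when counted over coding transcripts. A processed transcript of 130 bases held 53.9% of its TPM but 0.484% of its counts.

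**Figure D1:**
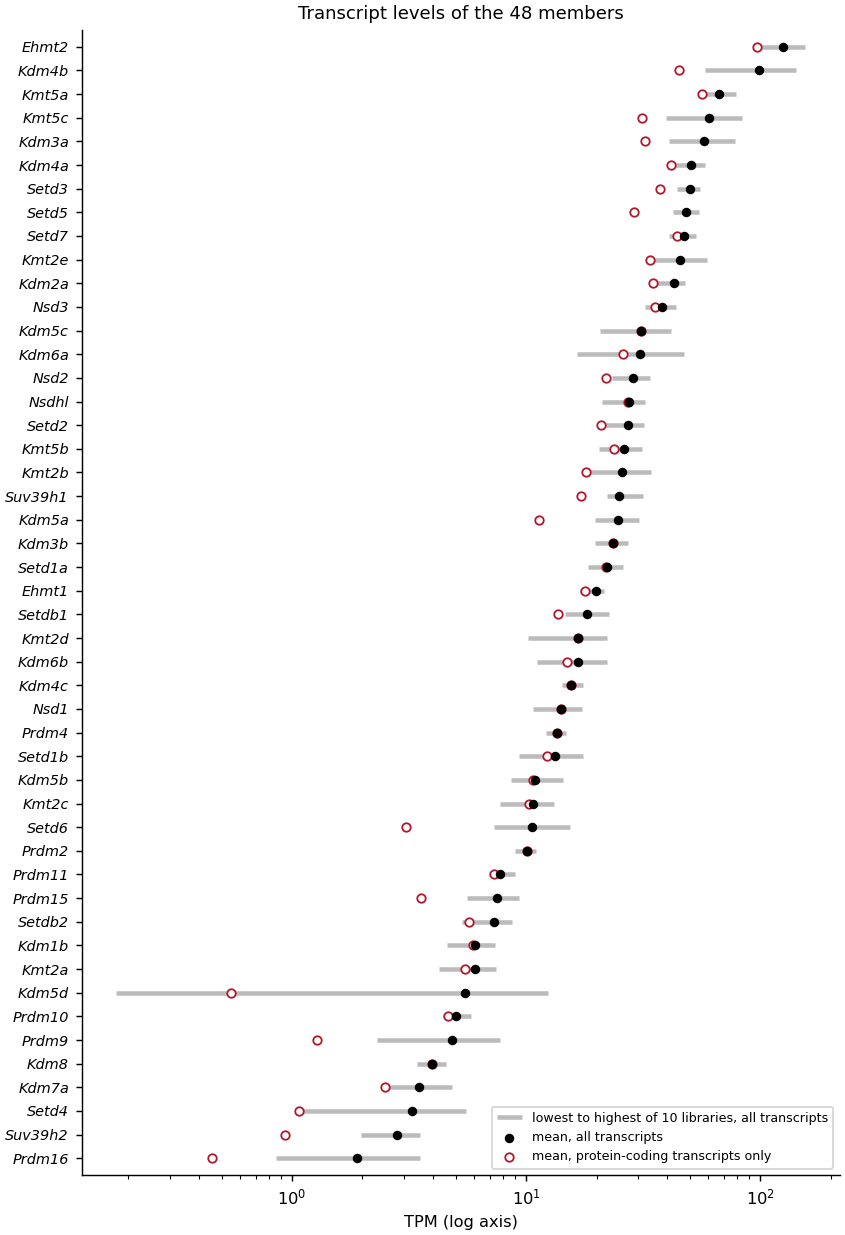
Levels of the 48 members in TPM on a log axis, ordered by the mean. Grey bars run from the lowest to the highest of the 10 libraries, filled points are the mean over all transcripts and open points the mean over protein-coding transcripts. Ehmt2 stands at 126 TPM at the top and Prdm16 at 1.89 TPM at the bottom, and the bar of Kdm5d spans 0.177 to 12.4 TPM.

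Among the H3K9 methyltransferases, Ehmt2 (G9a) was far above its partner Ehmt1, at 126 against 19.9 TPM, and the ranges over libraries, 94.5 to 156 and 16.9 to 21.6 TPM, did not overlap. Of the enzymes of constitutive heterochromatin, Suv39h1 had 25.0 TPM and Suv39h2 2.80 TPM. A transcript annotated for nonsense-mediated decay held 64.6% of the Suv39h2 level. Setdb1, which silences retroelements with Trim28, had 18.2 TPM, its relative Setdb2 had 7.32 TPM, and the zinc finger enzyme Prdm2 had 10.1 TPM.

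The H3K4 methyltransferases were led by the mono-methyltransferase Setd7 at 47.3 TPM. Of the enzymes that work in COMPASS complexes, Kmt2b had 25.7 TPM, Setd1a 22.1 TPM, Kmt2d 16.6 TPM, Setd1b 13.3 TPM and Kmt2c 10.7 TPM. Kmt2a was the lowest of them at 6.04 TPM. A transcript of 856 bases held 56.0% of the Kmt2d level and 4.58% of its counts, so the place of Kmt2d in this order rests largely on a short transcript.

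Of the H3K36 enzymes, Nsd3 was highest at 38.0 TPM, followed by Nsd2 at 28.7 TPM, Setd2, the trimethylase that travels with RNA polymerase II, at 27.3 TPM and Nsd1 at 14.2 TPM. Nsd2 and Setd2 overlapped over the libraries (23.2 to 33.9 and 21.6 to 31.8 TPM). The H4K20 enzymes were high: Kmt5a, which places the first methyl group in the cell cycle, had 66.9 TPM, Kmt5c 60.8 TPM and Kmt5b 26.3 TPM. Only 52.4% of the Kmt5c level came from protein-coding transcripts.

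Among SET proteins with other or unsettled substrates, Setd3, an actin histidine methyltransferase, had 50.1 TPM, Setd5 had 48.4 TPM (28.9 TPM coding) and Kmt2e had 45.4 TPM. Setd6 and Setd4 had 10.6 and 3.27 TPM, of which 30.2% and 30.5% were coding. The PRDM zinc finger factors were low. They were led by Prdm4 at 13.6 TPM, followed by Prdm11 at 7.71, Prdm15 at 7.50 (3.57 coding), Prdm10 at 5.01, Prdm9 at 4.82 and Prdm16 at 1.89 TPM. The last 2 were mostly non-coding transcripts, with 26.2% coding for Prdm9, the meiotic recombination factor, and 25.2% for Prdm16. Nsdhl had 27.5 TPM.

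Of the demethylases that act on H3K9 or H3K36, Kdm3a had 57.7 TPM (32.3 TPM coding), Kdm4a 50.6 TPM, Kdm2a 42.7 TPM, Kdm3b 23.6 TPM and Kdm4c 15.6 TPM. Kdm8 and Kdm7a were low at 3.97 and 3.49 TPM. The H3K4 demethylases were Kdm5c at 31.1 TPM, Kdm5a at 24.7 TPM (11.4 TPM coding), Kdm5b at 10.96 TPM (10.7 TPM coding), the flavin-dependent Kdm1b at 6.07 TPM and the Y-linked Kdm5d at 5.48 TPM. The latter is a mean over 5 libraries with and 5 nearly without its RNA. Of the H3K27 demethylases, Kdm6a (UTX) had 30.8 TPM and Kdm6b (JMJD3) 16.6 TPM.

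For the construct comparisons, edgeR's quasi-likelihood test was run on counts per gene, and p was adjusted by Benjamini-Hochberg over all 17810 genes tested. The block was the batch in the deposited names, and called means an adjusted p under 0.05. All 48 members passed the filter on low counts. None of the 48 was called between full-length Asxl2 and the empty vector, where 5.07% of all genes tested and 6.88% of protein-coding genes at 0.5 TPM or more were called. At an unadjusted p under 0.05 there were 4 members, and DESeq2 called 1, Kdm6b (8.52% of all genes). Between the mutants and the empty vector 4 members were called higher and 0 lower (8.33% of the members). The background there was 10.8% of all genes tested in either direction, 6.82% higher and 3.99% lower, and 14.5% and 9.01% higher among protein-coding genes at 0.5 TPM or more. The share of members called in either direction was below both backgrounds. The share called higher was above that of all genes and below that of the protein-coding genes. At an unadjusted p under 0.05 there were 14 members. Between the mutants and full-length Asxl2 none of the 48 was called, where 0.399% of all genes were. There 3 members had an unadjusted p under 0.05, and DESeq2 called 0 (2.80% of all genes). The empty vector libraries are shared by the first and second comparisons.

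**Figure D2:**
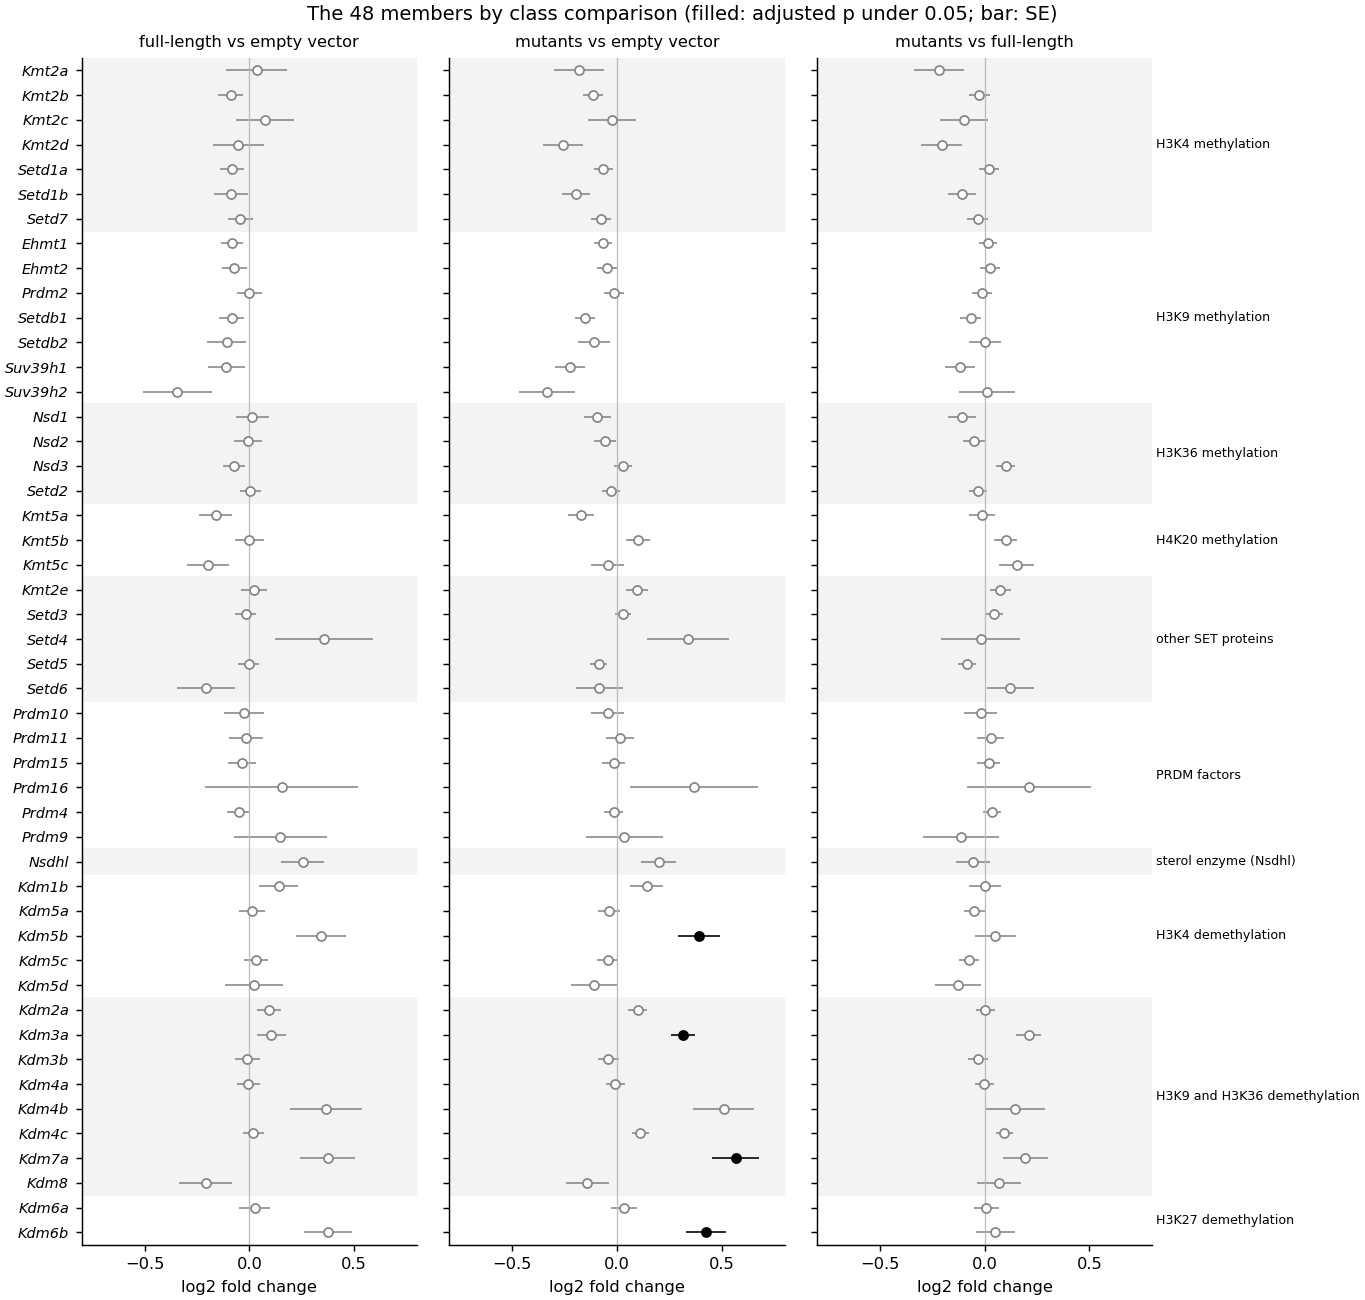
Log2 fold changes of the 48 members, grouped by role, in the 3 class comparisons, from the edgeR fit blocked by deposited batch. Points are estimates and bars 1 SE, and filled points have an adjusted p under 0.05. The 4 filled points all lie in the panel of the mutants against the empty vector, for Kdm5b, Kdm3a, Kdm7a and Kdm6b.

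The 4 called genes were among the 14 JmjC demethylases, whose median log2 fold change in the mutants over the empty vector was 0.07, against -0.01 over all genes tested. Of the 14, 8 lay above 0, beside 8702 of all 17810 genes tested. Of the same 14, 28.6% were called, beside the 10.8% and 14.5% given for all genes and for protein-coding genes. The members were chosen with results known, and no test of this group was made. Kdm3a and Kdm7a act on H3K9, Kdm7a also on H3K27, Kdm5b on H3K4 and Kdm6b on H3K27. The Kdm4b estimate of 0.51 (SE 0.15) did not pass, with an adjusted p of 0.0617 in edgeR, but DESeq2 called it (15.0% of all genes were called by DESeq2 there).

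Kdm7a (KIAA1718), a PHD finger demethylase of H3K9 and H3K27 on chromosome 6, had the largest fold of the 4. It was at 15.1 and 14.8 CPM with the empty vector and 23.7 and 16.2 CPM with full-length Asxl2, in batch 1 and batch 2. The 3 mutant libraries of batch 1 had 27.5, 28.1 and 28.5 CPM and those of batch 2 had 17.2, 18.2 and 18.4 CPM. All 6 mutant libraries were above both empty vector libraries. The 4 genes are named for their calls on these same libraries, so such separation is no further support. Its share over all genes was not computed. The log2 fold change was 0.57 (SE 0.11), or 1.48-fold, with an adjusted p of 0.00962 in edgeR. Within batch 1 it was 0.89 (SE 0.087, adjusted p = 0.00110) and within batch 2 it was 0.28, with an adjusted p of 0.123.

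Kdm6b, the inducible H3K27 demethylase on chromosome 11, was at 66.5 and 54.9 CPM with the empty vector and 98.3 and 62.0 CPM with full-length Asxl2. The mutants had 92.7, 93.1 and 93.3 CPM in batch 1 and 63.8, 67.1 and 81.3 CPM in batch 2. Within each batch every mutant library was above the empty vector library, but the lowest mutant of batch 2 was below the empty vector library of batch 1. The log2 fold change of the mutants was 0.42 (SE 0.095), or 1.34-fold, with an adjusted p of 0.0200 in edgeR. That of full-length Asxl2 was 0.37 (SE 0.11, adjusted p = 0.0987).

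Kdm5b, an H3K4 demethylase on chromosome 1, had 41.1 and 43.7 CPM with the empty vector and 63.7 and 45.9 CPM with full-length Asxl2. The mutants had 62.8, 63.7 and 64.3 CPM in batch 1 and 46.9, 47.5 and 54.2 CPM in batch 2, so all 6 were above both empty vector libraries. The log2 fold change was 0.39 (SE 0.10), or 1.31-fold, with an adjusted p of 0.0351 in edgeR. It was 0.63 (SE 0.088, adjusted p = 0.00437) within batch 1 and 0.18 (adjusted p = 0.357) within batch 2. This call was the least stable of the 4: it was lost when any 1 of 4 mutant libraries was left out (adjusted p from 0.0517 to 0.0670).

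Kdm3a, an H3K9 demethylase that is itself a known hypoxia target, had 123.1 and 106.4 CPM with the empty vector and 143 and 106 CPM with full-length Asxl2. The mutant libraries had 156, 157 and 163 CPM in batch 1 and 119, 130 and 136 CPM in batch 2. Each mutant library was above the empty vector library of its own batch, while the lowest one, in batch 2, was below the empty vector of batch 1. The log2 fold change was 0.32 (SE 0.059), or 1.24-fold, the smallest fold and the smallest adjusted p of the 4 (0.00748 in edgeR). Against full-length Asxl2 the difference was 0.21 (SE 0.059), with an adjusted p of 0.173.

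**Figure D3:**
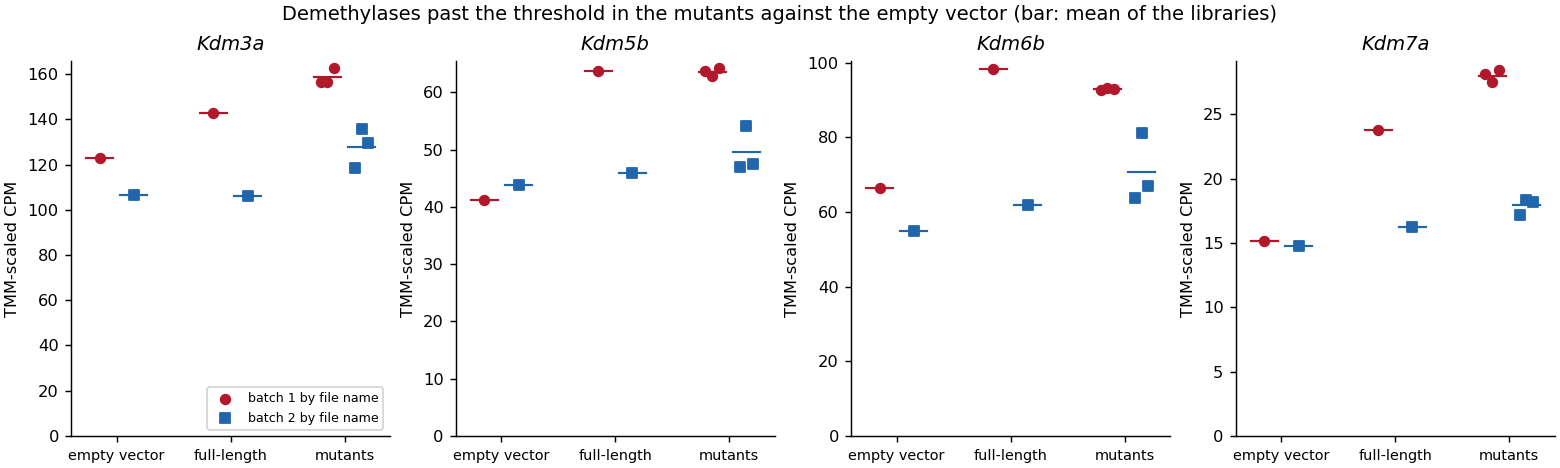
TMM-scaled CPM of the 4 called demethylases in each library, by construct class. Circles are batch 1 and squares batch 2 of the deposited names, and bars are the mean of the libraries of a class in a batch. In every panel the mutant libraries of a batch lie above the empty vector library of that batch, and for Kdm7a those of batch 1 lie at 27.5 to 28.5 CPM against 15.1 CPM.

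All 4 calls rested on the empty vector library of batch 1, though calls over all genes also fell when it was left out. Without it 0 members were called in edgeR (12 at an unadjusted p under 0.05), and the log2 fold changes were 0.29 for Kdm7a, 0.33 for Kdm6b, 0.16 for Kdm5b and 0.25 for Kdm3a. Without the empty vector library of batch 2, 7 members were called, and within batch 1 alone the count was also 7 (10.1% of all genes tested). Beside the 4 demethylases these were Suv39h1, Suv39h2 and Kmt5a, called lower. Within batch 2 only Kmt2a was called, lower by -0.43 in log2 (3.16% of all genes). Within batch 1 no member was called between the mutants and full-length Asxl2 (0.0449% of all genes). Without the replicate block no member was called (3 at an unadjusted p under 0.05 in edgeR), and the same held for the block by labelled batch (5), with limma on log2(TPM + 1) (12) and with only the libraries whose deposited name matches the label (6). For the mutants against the empty vector, the main fit called 1925 of all 17810 genes tested. Without the block it was 311, with the labelled batch 335 and with that limma fit 707. With only the matching libraries it was 567 of 17317. The estimates of the 4 genes were above 0 in all of these settings. Without the 2 libraries whose labelled batch differs, the count was again 4, with Kdm4b in place of Kdm5b.

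Whether the effect differed between the batches was tested with a class-by-batch term. By label the mutants of batch 1 were Mutant1 and Mutant2, and those of batch 2 were Mutant2 and Mutant3. With mutants taken by label, a difference between batches and a difference between mutants therefore cannot be told apart in the mutant effects. The deposited names give another mutant number for 4 libraries, and the mutants were not split by those numbers. No member passed for the mutants against the empty vector, where 0.0% of all genes did (9 members had an unadjusted p under 0.05, and no other tool was run on this term). The differences of Kdm7a and Kdm5b between batch 2 and batch 1 were -0.61 (adjusted p = 0.129) and -0.45 (adjusted p = 0.208). No member passed when full-length Asxl2 was set against the empty vector (0.0168% of all genes) or against the mutants (0.0337%), with 4 and 3 members at an unadjusted p under 0.05. Within batch 1, Kdm5b (0.63) and Kdm7a (0.65) were called for full-length Asxl2 over the empty vector (1.63% of all genes), and within batch 2 no member was (1.76%). Within a batch this comparison set 1 library against 1, so its spread was taken from the mutant libraries, and the lone libraries are assumed to vary like them. Against the mutants, too, each batch held 1 library of each control class.

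The 21 methyltransferases with a settled histone lysine held 0 called members in each of the 3 class comparisons, beside 5.07%, 10.8% and 0.399% of all genes tested. In the mutants over the empty vector their median log2 fold change was -0.08, with 19 of 21 below 0, including all 7 H3K4 and all 7 H3K9 enzymes. Below 0 there were 9108 of all 17810 genes tested and 6083 of 11432 protein-coding genes at 0.5 TPM or more. For the H3K4 enzymes the values ran from -0.26 to -0.02, and for the H3K9 enzymes from -0.33 to -0.01. The lowest estimates were -0.33 (SE 0.13) for Suv39h2 and -0.26 (SE 0.097) for Kmt2d, with edgeR adjusted p of 0.142 and 0.127. DESeq2, with its 15.0% of all genes called in either direction, called 4 methyltransferases lower, Kmt2d, Setd1b, Setdb1 and Suv39h1. The 4 H3K36 enzymes lay between -0.09 and 0.03 and the 3 H4K20 enzymes between -0.17 and 0.10.

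Suv39h1, Suv39h2 and Kmt5a in batch 1 and Kmt2a in batch 2 were the methyltransferases whose mutant effect passed within a batch. Suv39h1 had 56.0 CPM with the empty vector and 41.8 to 44.5 CPM with any construct in batch 1, but 54.2 CPM with the empty vector and 51.4 to 59.0 CPM with any construct in batch 2. The mutant effect was -0.39 in batch 1 (adjusted p = 0.00675 in edgeR). Kmt2a had 61.3, 57.6 and 53.5 CPM in the 3 mutants of batch 2 and between 73.4 and 81.1 CPM in the other 7 libraries. By label the 3 mutants of batch 2 were replicate 2 of Mutant2 and both libraries of Mutant3. Within batch 2 its fall was called against the empty vector and also against full-length Asxl2 (-0.46, adjusted p = 0.0450), where it was the only member called (0.803% of all genes). The difference of the mutant effect between batches was 0.34 for Suv39h1 and -0.50 for Kmt2a, with adjusted p of 0.198 and 0.185, and was not called.

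The SET proteins with other substrates and the PRDM factors gave no call in any of the class comparisons. Setd4 and Prdm16 had the highest estimates in the mutants over the empty vector, 0.34 and 0.37, but both were near the bottom of the range of levels. Nsdhl, the cholesterol enzyme, had 0.25 with full-length Asxl2 and 0.20 with the mutants over the empty vector, with edgeR adjusted p of 0.201 and 0.168.

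Genes of the same pathways that are no members were looked at through 4 lists. Of 13 other JmjC proteins, 2 rose and 1 fell in the mutants over the empty vector (23.1%). Of all genes tested, 6.82% were called higher there and 3.99% lower. The risers were Hspbap1 (0.66, SE 0.12, adjusted p = 0.00547 in edgeR) and the hydroxylase Jmjd6 (0.37, SE 0.099, adjusted p = 0.0427). The ribosomal oxygenase Riox2 fell by 0.17 (SE 0.048, adjusted p = 0.0495). Hspbap1 was at 4.67 and 3.82 CPM with the empty vector and at 5.96 to 7.37 CPM in the 6 mutant libraries. The groups did not overlap, but Hspbap1 is named for its call on these same libraries, so this is no separate support. The share of all genes for which it held was not computed.

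Of 10 other lysine methyltransferases 1 fell, the H3K79 enzyme Dot1l (by 0.19, SE 0.052, adjusted p = 0.0365 in edgeR), and of 13 readers and partners of H3K9 methylation, the chromodomain protein Cdyl rose by 0.22 (adjusted p = 0.0202) and the silencing ATPase Morc2a fell by 0.16 (adjusted p = 0.0417). None of 13 COMPASS partners passed. No gene of the 4 lists was called between full-length Asxl2 and the empty vector or between the mutants and full-length Asxl2.

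In batch 2 against batch 1, 11 of the 48 were called higher and 18 lower (60.4%), where 52.4% of all genes tested and 59.8% of protein-coding genes at 0.5 TPM or more were called, so the share of members was close to that of expressed protein-coding genes. The background was 26.6% higher and 25.9% lower over all genes, and 38.7% higher and 21.1% lower over those protein-coding genes. More members were lower than higher in each setting named here, but the split varied: with limma on log2(TPM + 1) the split was 4 higher and 29 lower, with log2(TPM + 0.1) it was 4 and 30, and with a stricter filter of 1 CPM in 4 libraries it was 8 and 25. On those TPM scales the median of all genes was -0.11 and -0.20, against -0.04 for counts.

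**Figure D4:**
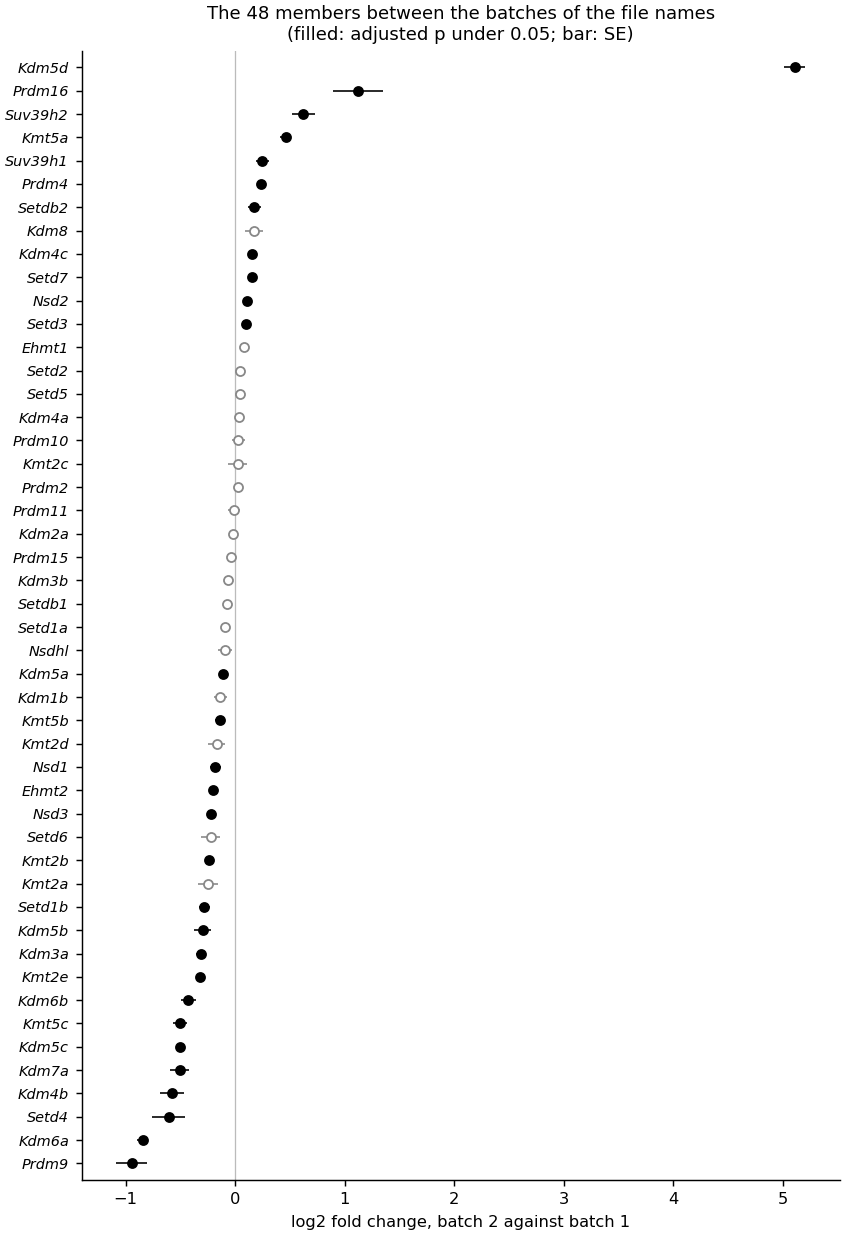
Log2 fold changes of the 48 members in batch 2 against batch 1 of the deposited names, ordered by size. Points are estimates and bars 1 SE, and filled points have an adjusted p under 0.05. Kdm5d stands apart at 5.11, and the lowest estimates are those of Prdm9 and Kdm6a.

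The members with the smallest p between batches were the sex-linked demethylases. Kdm5d, the Y-linked H3K4 demethylase (GRCm38, chrY:897788-956786), was at 36.4, 37.4, 34.4, 34.9 and 34.9 CPM in the 5 libraries of batch 2 and at 0.757 to 1.24 CPM in the 5 of batch 1. The log2 fold change was 5.11 (SE 0.096, adjusted p = 6.58e-11 in edgeR). Libraries of batch 1 held 51 to 88 counts of it, and any reads shared with its X-linked relative cannot be assigned with certainty. All 5 libraries above 10 CPM were in batch 2 by the deposited names, but only 4 of the 5 by label. Of its mean of 5.48 TPM, only 0.549 TPM came from protein-coding transcripts. In batch 2, transcripts annotated with a retained intron held 55.8 to 63.2% of its TPM.

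The X-linked partners moved the other way. Kdm5c (chrX:152233020-152274535) had a mean of 147 CPM in batch 1 and 104 CPM in batch 2, a change of -0.50 (SE 0.038, adjusted p = 7.23e-06 in edgeR). Kdm6a (chrX:18162575-18279936) had 163 and 91.0 CPM, a change of -0.84 (SE 0.048, adjusted p = 1.94e-06). For neither gene did the libraries of the batches overlap, but the share of all genes without such overlap was not computed. Between these batches 52.4% of all genes tested were called. Both are known to escape X inactivation. The Y-linked relative of Kdm6a, Uty, was at 28.9 to 31.7 CPM in batch 2 and at 0.113 to 0.267 CPM in batch 1.

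Summed with the Y copy, Kdm5c and Kdm5d gave 148 ± 5.43 CPM in batch 1 and 139 ± 5.38 CPM in batch 2 (SD, n = 5 each), so that the sums were closer than the X copies alone. Kdm6a and Uty gave 164 ± 8.30 and 121 ± 4.92 CPM (SD, n = 5 each), and the ranges of these sums did not overlap. Xist, the RNA of the inactive X chromosome, had 953.8 to 1199 CPM in batch 1 and at most 0.192 CPM in batch 2, and Ddx3y had at most 0.323 and 61.4 to 70.2 CPM. Batch and this sex-linked pattern coincided in all 10 libraries and cannot be told apart.

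**Figure D5:**
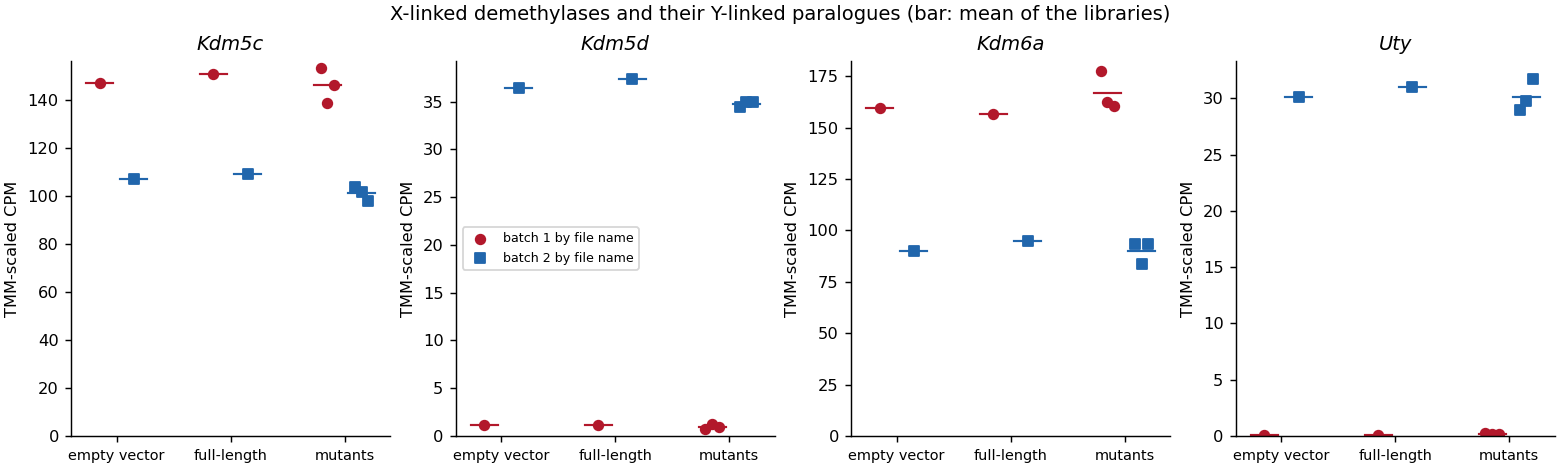
TMM-scaled CPM of the X-linked demethylases Kdm5c and Kdm6a and of their Y-linked relatives Kdm5d and Uty in each library, by construct class. Circles are batch 1 and squares batch 2 of the deposited names, and bars are the mean of the libraries of a class in a batch. Kdm5d lies at 34.4 to 37.4 CPM in batch 2 and at 0.757 to 1.24 CPM in batch 1, in every class.

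Among the autosomal members, the H4K20 enzymes moved in opposite directions. Kmt5a was at 76.1 to 99.7 CPM in batch 1 and 113 to 119 CPM in batch 2 (0.46, SE 0.049), and Kmt5c was at 72.8 to 82.5 and 45.6 to 61.3 CPM (-0.50, SE 0.063). Kmt2e, a SET protein without known methyltransferase activity, fell by 0.32 (SE 0.040), and the zinc finger factor Prdm4 rose by 0.23 (SE 0.035). Kdm3a fell by 0.31 (SE 0.045), close in size to its mutant effect of 0.32. The edgeR adjusted p of these 5 lay between 3.88e-05 and 0.000268. With limma on log2(TPM + 1), the estimates were 0.25 for Kmt5a (adjusted p = 0.0281) and 0.06 for Prdm4 (adjusted p = 0.532), so the Prdm4 call was lost on that scale.

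The deposited tables also give each transcript, and a share of many members came from transcripts annotated with a retained intron. Over all genes such transcripts made up 4.37 to 4.98% of TPM in batch 1 and 3.05 to 3.75% in batch 2. Of the 29 members with a share of 1% or more, 10 were higher in every batch 1 library than in any batch 2 library and 2 were lower, against a background of 39.5% and 0.728% of such genes. The 10 were Ehmt1, Ehmt2, Kdm2a, Kdm3a, Kdm6a, Kmt5b, Nsd3, Setd1b, Setd3 and Setdb1, and the 2 lower ones were Setd4 and Kdm5d. Kdm5d held only 51 to 88 counts in each batch 1 library, and reads shared with its X-linked relative cannot be assigned with certainty. Its share in batch 1 is therefore uncertain, and no conclusion is drawn from its place among the 2. The share of Ehmt2 was 19.9 to 21.5% in batch 1 and 12.8 to 17.0% in batch 2, and that of Kdm2a was 15.4 to 17.5% and 7.23 to 10.6%. These shares were not tested, since read assignment between transcripts has an unknown error in these tables.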

How the data were processed

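The deposited tables hold 1 row for each of 115088 transcripts in each of 10 libraries. Per the file headers, the authors deposited kallisto output, with an estimated count and a TPM value per transcript. The submitters' processing notes name kallisto, DESeq2 and build mm10, with no version or role. The transcript index and any trimming are not stated. Kallisto divides shared reads among transcripts, so near-identical paralogues and overlapping genes are uncertain.

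Transcripts were summed per gene through GENCODE M21, matching 99.2% of transcripts and 99.3 to 99.6% of counts. The deposited estimated counts were rounded after summing, which gave 52152668 to 78876983 per library. edgeR 4.0.16 (TMM, its default expression filter with a count of 10, robust quasi-likelihood fit) tested 17810 genes over all 10 libraries, with class and the batch of the deposited names. Adjusted p is by Benjamini-Hochberg. The pairing is by the batch of the deposited names, which differs from the labelled batch for Mutant1 replicate 2 and Mutant3 replicate 1. By the deposited names, the differences between batches correlated between pairs of classes at 0.525, 0.571 and 0.640, with the mutants of a batch averaged. By label, deviations of replicate 1 from the mean of its labelled group were correlated instead, with the 3 mutants kept apart. These gave 0.491, 0.525 and 0.578 for 3 pairs of groups and -0.145 to 0.0169 for the other 7. The measures differ, so their sizes are not directly comparable.

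Named genes are all members called in a class comparison, the 8 called between batches with the smallest p, every member once by its level, and up to 4 called genes of each partner list and comparison. Others named were chosen after their values were seen. The members and lists were chosen with earlier results of these data known. The alternatives within batches, with the class-by-batch term and without the 2 libraries of differing batch were added after seeing the data. Alternatives used DESeq2 1.42.0 and limma 3.58.1 in R 4.3.3, where adding 1 or 0.1 to TPM understates changes of low genes. The code was tested on simulated data. Promoters came from RefSeq. Some genes below the level limit or in the marker lists are not reported here by name.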

Additional observations from a re-analysis of the deposited data

Results flagged for a closer look

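Setd2, the enzyme of H3K36 trimethylation, had 108 CPM in Mutant2 replicate 1 and between 113 and 116 CPM in the other 5 mutant libraries, which set that library apart from the rest of its class. Of the 48 members looked at in this way over the 6 mutant libraries this was the only one, and chance sets apart about 1 in 20.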

How the results depend on the processing

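For the mutants against the empty vector, the 4 calls became 0 with no replicate block, 0 with the block by labelled batch, 0 with limma on log2(TPM + 1), 0 on log2(TPM + 0.1) and 0 with only the libraries whose deposited name matches the label. They became 9 with DESeq2, 7 within batch 1, 1 within batch 2, and 0 to 7 with 1 library left out, the 0 without the batch 1 empty vector library and the 7 without the batch 2 one. With full-length Asxl2 set against the empty vector, the 0 calls became 1 with DESeq2, 2 within batch 1, 1 without the 2 libraries of differing batch, and 0 to 2 with 1 library left out. For the mutants against full-length Asxl2, the 0 calls became 1 within batch 2. Between batches, the 29 calls became 0 with the labelled batch and 18 with only matching libraries. The cause of these changes was not tested, except that settings with fewer libraries have less data. For the mutants against the empty vector, calls over all genes were also fewer in each setting with 0 member calls.

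Signs changed in estimates that were not called. With full-length Asxl2 set against the empty vector, Kdm3a was at -0.0041 within batch 2. For the mutants against full-length Asxl2, Kdm5b was at -0.058 without full-length replicate 2 (0.158 without replicate 1) and -0.0024 within batch 1, and Kdm6b was at -0.095, -0.079, -0.0039 and -0.0067 without full-length replicate 2, within batch 1, without Mutant3 replicate 1 and without the 2 libraries of differing batch (0.199 without full-length replicate 1). For the mutants against the empty vector, Kdm3a, Kdm5b, Kdm6b and Kdm7a were above 0 under each alternative run. Depth limits mainly Suv39h2, Setd4, Prdm9 and Prdm16, the least abundant members by count besides Kdm5d.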
